A study of Arabidopsis thaliana with 12 samples.

Results

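Sterol synthesis in Arabidopsis thaliana leaves was followed through 10 genes, chosen by locus code in the deposited TPM table of the 1 h experiment and all found among its 32833 genes. They are SMT1 (AT5G13710), SMT2 (AT1G20330), SMT3 (AT1G76090), CYP51G1 (AT1G11680), HMG1 (AT1G76490), FK (AT3G52940), HYD1 (AT1G20050), DWF7 (AT3G02580, listed in the table as STE1), DWF5 (AT1G50430) and CAS1 (AT2G07050). The choice was made with results of these data known, and its name singles out SMT3, which stands apart at high humidity. The members' levels at high humidity are therefore given as a description, with fold changes and no p-value, and nothing is supported with them. Calls of members there, also those lost or gained under another setting, describe the fit over all genes and test nothing about the members. The share of all genes whose libraries do not overlap between conditions was not counted, so nothing is read from a lack of overlap. TPM is a length-scaled share of all transcripts in a library, so levels of different genes can be set side by side on it.

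Wild-type plants of the Col-0 accession, 3.5 to 4 weeks old and raised in soil at 60% relative humidity and 22 °C with 12 h of light, were moved for 1 h into chambers held at 40 to 45% (low), 55 to 60% (moderate) or 95% (high) relative humidity. Leaves gave 4 biological replicate libraries per condition, 12 in all, and the moderate condition, closest to the growth setting, is taken here as the reference. No group carries a mutation or transgene. The labels do not say whether a library is 1 plant or a pool, and a chamber cannot be told apart from its humidity, so p-values measure the spread between these samples.

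Sterols are membrane lipids, and in plants they also supply the precursor of the brassinosteroid growth hormones. Acetyl-CoA is turned through mevalonate into squalene, squalene is oxidised and closed into the ring compound cycloartenol, and the rings are then demethylated, isomerised, desaturated and reduced. Plants also methylate the side chain of their sterols. SMT1 adds the first methyl group, to cycloartenol, and SMT2 and its close paralog SMT3 add the second, which steers the flow towards sitosterol and away from campesterol, the brassinosteroid precursor.

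The libraries sum to between 998920 and 999399 TPM, a fixed total that keeps no sequencing depth, and hold 20691 to 20967 genes above 0. The first principal component, with 48.1% of the variance, set the 4 high humidity libraries apart (scores 46.4 to 65.5) from the 8 others (-32.9 to -19.7). Among the low humidity libraries, replicate 1 stood apart, with 25.46% of its TPM from 92 photosynthetic genes against 29.62 to 31.09% in the other 3. These genes were taken by words in their descriptions (photosystem, chlorophyll, ribulose or rubisco). Their share was 26.66 to 28.34% in the high humidity libraries. In the moderate libraries, the reference, it was 23.62 to 23.85%, below every other library. The median of 17368 tested genes lay at a log2 fold change of -0.22 at high against moderate humidity, and at -0.02 after median-of-ratios scaling, which is built to centre it. As deposited it was -0.18 at low against moderate and -0.06 at high against low humidity. The shift was thus larger against the moderate libraries than between high and low humidity, and not particular to high humidity. Why the median shifted was not tested. A change is therefore given as deposited and, where it matters, also after that scaling. Leaf identity was clear from RBCS1A, a Rubisco small subunit gene with at least 23693.23 TPM in each library, while of 3 root markers CASP1 was at 0 throughout and none passed 0.51 TPM. Trichome markers stayed at or under 0.97 TPM and flower markers at or under 3.5 TPM.

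At high against moderate humidity the 3 sterol methyltransferase genes were the members with the largest positive differences, SMT3 by far. SMT3 transcripts were at 84.1 ± 14.9 TPM at high and 5.1 ± 0.948 TPM at moderate humidity (SD, n = 4), a 16.5-fold ratio of means. SMT2 was 2.51-fold and SMT1 2.35-fold higher, FK 1.98-fold and HMG1 1.46-fold, while CAS1, DWF5, HYD1 and CYP51G1 had ratios between 0.83 and 1.02.

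SMT3 encodes a side-chain methyltransferase of the SMT2 type. At moderate humidity it was at 5.03, 6.46, 4.39 and 4.52 TPM in replicates 1 to 4, and at low humidity at 4.58, 2.93, 4.03 and 3.87 TPM. At high humidity it was at 92.1, 61.76, 92.18 and 90.53 TPM. Every high humidity library lay far above all 8 others, and replicate 2 was the lowest of the high humidity group. On the log2(TPM + 1) scale the difference was 3.80 (SE 0.16) against moderate and 4.13 (SE 0.16) against low humidity. These were the rank 30 and rank 21 largest positive differences of the 17368 tested genes. After scaling they were 4.01 and 4.18.

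SMT2, the more abundant paralog, was at 116.81, 112.3, 116.23 and 113.16 TPM in the moderate libraries and at 103.11, 117.9, 113.89 and 123.93 TPM in the low ones. Its high humidity libraries were at 279.4, 295.25, 307.71 and 267.55 TPM. The high group did not overlap the others, and replicate 2, the lowest for SMT3, was the second highest for SMT2. The log2 difference was 1.32 (SE 0.08) against moderate and also 1.32 (SE 0.08) against low humidity.

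SMT1, which acts before the other methyltransferases, was at 62.19, 66.74, 62.77 and 53.8 TPM at moderate and at 70.65, 49.58, 56.14 and 48.79 TPM at low humidity. At high humidity it was at 154.84, 132.64, 151.64 and 137.57 TPM, again without overlap. The log2 difference was 1.22 (SE 0.12) against moderate and 1.35 (SE 0.12) against low humidity, close in size to that of SMT2. The 3 methyltransferases together took 516 ± 28.7 TPM at high, 181 ± 6.78 at moderate and 175 ± 3.59 at low humidity (SD, n = 4).

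**Figure D1:**
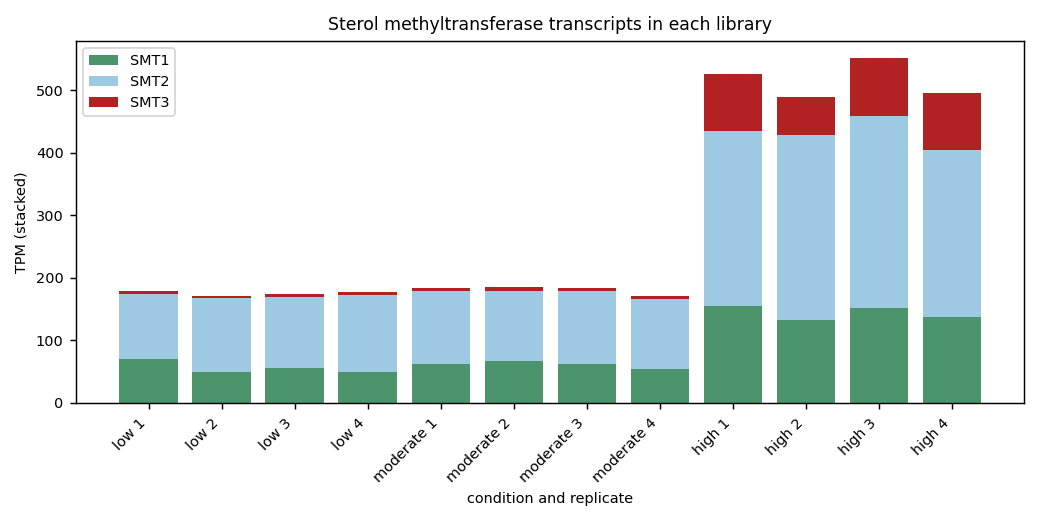
TPM of SMT1, SMT2 and SMT3, stacked, in each of the 12 libraries, by condition and replicate. The stacks reach 490 to 552 TPM in the high humidity libraries and 170 to 186 TPM in the others, and the SMT3 segment (top) is thin in the low and moderate libraries.

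Within the pair of second-step methyltransferases the balance moved towards SMT3. SMT3 made up 22.6% ± 3.67 of the summed TPM of SMT2 and SMT3 at high humidity (SD, n = 4), against 4.26% ± 0.81 at moderate and 3.28% ± 0.767 at low humidity. This share does not depend on the scaling of a library. The log2 ratio of SMT3 to SMT2 (each TPM + 1) was -1.78 ± 0.32 at high and -4.26 ± 0.23 at moderate humidity, and that of SMT3 to SMT1 was -0.79 ± 0.21 and -3.36 ± 0.16. The ratio of SMT2 to SMT1 was nearly level, at 0.99 ± 0.13 at high and 0.89 ± 0.13 at moderate humidity. SMT2 and SMT3 are close paralogs, and so are the squalene epoxidase, methyl oxidase and MVD genes below. The submitters' notes name the program RSEM, but the settings used to assign reads that match more than 1 paralog are unknown. The split within such pairs is uncertain to that degree.

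HMG1 encodes HMG-CoA reductase, a main control point of the mevalonate route. Its moderate libraries were at 128.92, 128.75, 140.93 and 119.27 TPM and its low libraries between 126.9 and 135.08 TPM. At high humidity it was at 201.25, 169.42, 202.42 and 182.56 TPM, above all 8 others. The log2 difference against moderate humidity was 0.54 (SE 0.08), and 0.78 after scaling.

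CAS1, the cyclase that forms cycloartenol, lay between 49.68 and 52.34 TPM at moderate and between 49.52 and 55.19 TPM at high humidity, and these ranges overlapped. Its log2 difference was 0.03 (SE 0.08) as deposited. After scaling it was 0.27, and CAS1 then passed the threshold.

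The ring-modifying members differed from each other. FK, a sterol reductase that acts on the product of the demethylase CYP51G1, was at 12.6, 14.92, 15.02 and 15.42 TPM at moderate and at 34.92, 27.25, 29.27 and 23.07 TPM at high humidity. Its low libraries were between 9.7 and 14.31 TPM. All high humidity libraries were above the others, and the log2 difference against moderate humidity was 0.92 (SE 0.14). CYP51G1 itself was lower, at 25.07 to 28.76 TPM at high against 30.56 to 34.16 TPM at moderate humidity, with no overlap. The difference of -0.24 (SE 0.09) was close to that of the median gene and became -0.01 after scaling, where it no longer passed the threshold. It also lost its call when any of high humidity replicates 1, 3 or 4 or moderate replicates 2, 3 or 4 was left out, with log2 differences of -0.21 to -0.26. HYD1, a sterol isomerase, was at 32.34 to 33.86 TPM at high and 33.97 to 46.87 TPM at moderate humidity (-0.25, SE 0.12, and -0.02 after scaling). Its high humidity libraries were tightly grouped, just below the lowest moderate library. Without low humidity replicate 1 HYD1 passed the threshold, at -0.25.

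The late members were DWF7 and DWF5, a sterol desaturase and a sterol reductase whose loss makes dwarf plants. DWF7 was at 21.8, 22.99, 19.43 and 20.6 TPM at moderate and at 26.61, 24.02, 25.38 and 27.81 TPM at high humidity. The high group lay above the moderate group by a small margin, with a log2 difference of 0.28 (SE 0.09) and 0.51 after scaling. Its call was lost without high humidity replicate 1 or 4 or moderate replicate 3 or 4, with values of 0.24 to 0.27. DWF5 was at 45.44 to 55.0 TPM at high and 48.68 to 72.15 TPM at moderate humidity, which overlap. Its log2 difference of -0.14 (SE 0.14) turned to 0.09 after scaling.

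**Figure D2:**
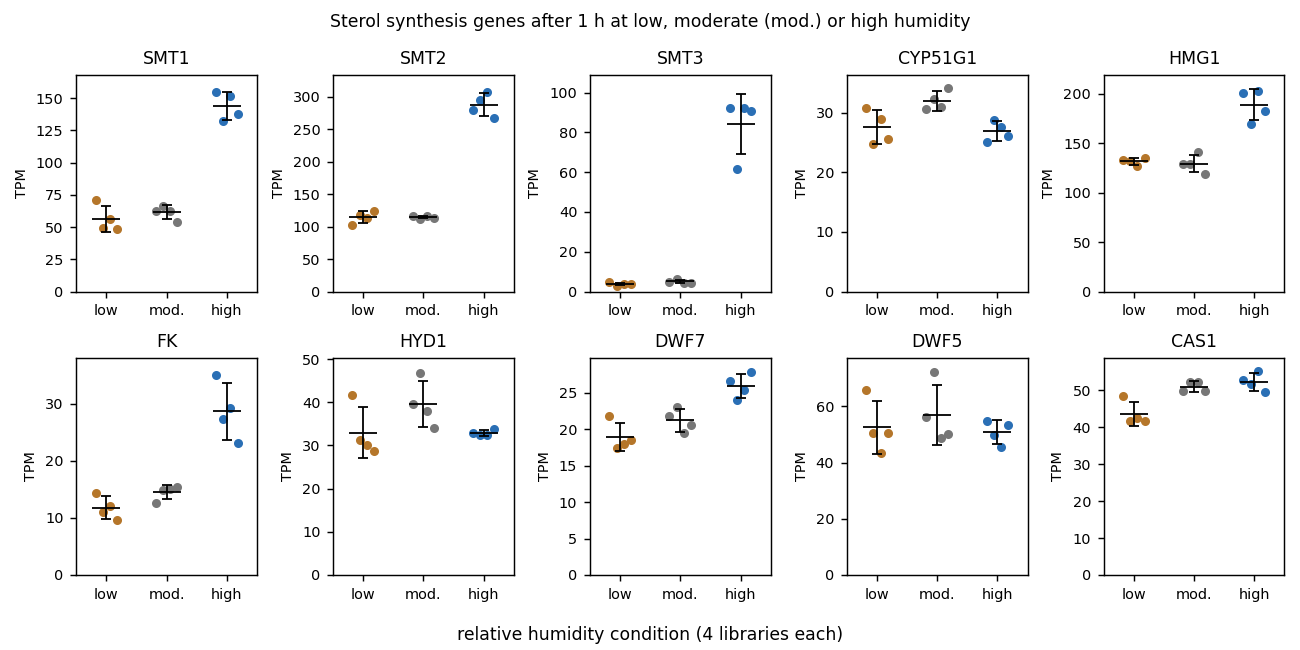
TPM of the 10 members in each library (points) with the mean and SD of each condition (bar and whiskers, n = 4), in panels with axes from 0. SMT1, SMT2, SMT3, HMG1, FK and DWF7 sit higher in all 4 high humidity libraries than in any moderate one, and CYP51G1 and HYD1 sit lower. The share of all genes that separate in this way was not counted. The single low SMT3 point at high humidity is replicate 2, at 61.76 TPM.

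All 10 members had at least 1 TPM in every library, so the filter on low values removed none. In the fit across all genes with limma, 6 of the 10 were called higher (SMT1, SMT2, SMT3, HMG1, FK and DWF7) and 1 lower (CYP51G1) at high against moderate humidity at an adjusted p of 0.05. Of all tested genes 11.4% were called higher and 34.2% lower. After scaling 7 members were called higher and 0 lower, against 18.6% and 15.0% of all genes. The median log2 difference of the members was 0.41, against -0.22 for all tested genes. Since the members were chosen with these values known, nothing is read from these counts.

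The order of the members by level was rearranged at high humidity. At moderate humidity it ran HMG1 (129 TPM), SMT2 (115), SMT1 (61.4), DWF5 (56.9), CAS1 (51.0), HYD1 (39.6), CYP51G1 (31.9), DWF7 (21.2), FK (14.5) and SMT3 (5.1), the lowest. Library ranges overlapped between SMT1 and DWF5, DWF5 and CAS1, and HYD1 and CYP51G1, and between no other neighbours in that order. At high humidity SMT2 (287 TPM) came before HMG1 (189), SMT1 (144) and SMT3 (84.1), which had moved from rank 10 to rank 4. CAS1 (52.3) and DWF5 (50.9) overlapped, as did each neighbouring pair among HYD1 (32.8), FK (28.6), CYP51G1 (26.9) and DWF7 (26.0). At low humidity the order was that of moderate humidity, with SMT3 lowest at 3.85 TPM.

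High against low humidity shares the high humidity libraries with the comparison above. There 7 of 10 members were called higher and 0 lower, against 12.4% and 11.3% of all genes. They were the same 6 and CAS1, at 0.26 (SE 0.08), which was at 43.6 ± 3.27 TPM at low and 52.3 ± 2.36 TPM at high humidity. The CAS1 call was lost without high humidity replicate 1 or 3 or low humidity replicate 2, 3 or 4, at 0.23 to 0.25, and when these conditions were fitted alone. FK differed by 1.21 (SE 0.14), HMG1 by 0.51 (SE 0.08) and DWF7 by 0.44 (SE 0.09), while CYP51G1, HYD1 and DWF5 lay between -0.03 and 0.01.

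**Figure D3:**
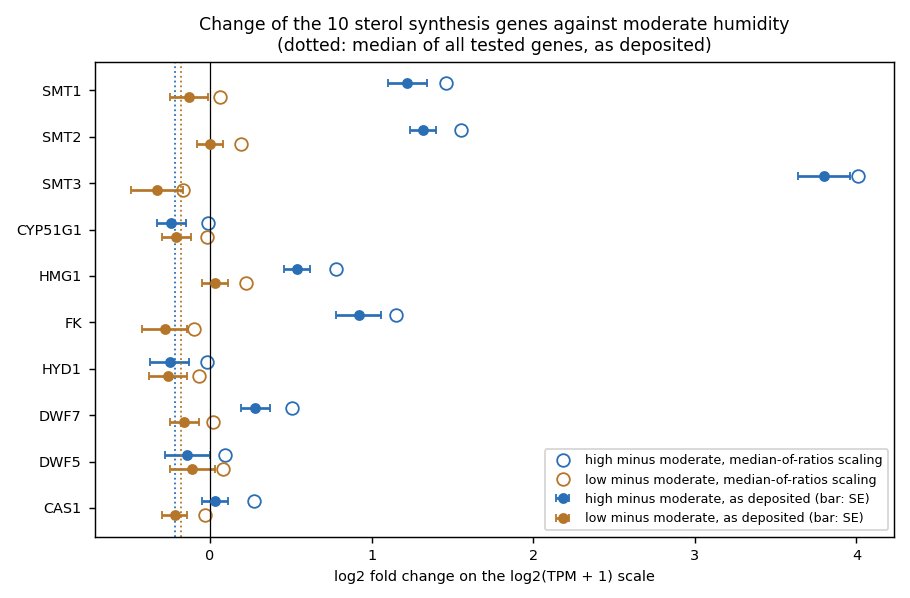
Log2 fold change of each member against moderate humidity on the log2(TPM + 1) scale, for high (blue) and low (brown) humidity, with filled points and SE bars as deposited and open points after median-of-ratios scaling. Dotted lines mark the median of all tested genes, -0.22 for high and -0.18 for low humidity. SMT3 stands at 3.80 at high humidity, and the low humidity points lie between -0.33 and 0.03.

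At low humidity the members lay close to their moderate levels. At low against moderate humidity none of the 10 members passed an adjusted p of 0.05 with limma, where 0.443% of all genes were called higher and 0.23% lower. The count was also 0 without trend and robust moderation, and 3 members (CAS1, CYP51G1 and HYD1) had an unadjusted p under 0.05, against 29.2% of all genes. SMT3 was at 3.85 ± 0.686 against 5.1 ± 0.948 TPM (SD, n = 4), a log2 difference of -0.33 (SE 0.16, limma adjusted p = 0.18, 0.08 to 0.63 over the alternatives). SMT2 was at 115 ± 8.76 against 115 ± 2.23 TPM (limma adjusted p = 0.99) and SMT1 at 56.3 ± 10.1 against 61.4 ± 5.44 TPM (-0.13, SE 0.12, limma adjusted p = 0.44). HMG1 differed by 0.03 (SE 0.08, limma adjusted p = 0.83). The other 6 lay between -0.28 and -0.11, near the median of all genes at -0.18, with limma adjusted p from 0.10 to 0.60.

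Low humidity replicate 1 bears on these values. In SMT1, FK, HYD1, DWF7, DWF5, CAS1, CYP51G1 and SMT3 it was the highest of the 4 low humidity libraries, and in SMT2 the lowest. Without it 5 members were called lower, FK (-0.37), HYD1 (-0.38), CAS1 (-0.27), CYP51G1 (-0.27) and DWF7 (-0.23), with limma adjusted p of 0.046, 0.015, 0.011, 0.028 and 0.046, while 30.3% of all genes were then called lower and 2.27% higher. SMT3 was at -0.40 (limma adjusted p = 0.08). After median-of-ratios scaling of all 12 libraries no member was called, against 0.704% of all genes higher and 0.0346% lower, and their log2 differences lay between -0.17 and 0.22. The part of the photosynthetic share in these differences was not tested.

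The ratios between the methyltransferases were tested for low against moderate humidity by exact two-sided permutation of the 4 and 4 libraries, where the smallest p possible is 0.0286. SMT3 to SMT2 differed by -0.33 (exact p = 0.143, adjusted over the 3 ratios 0.257), SMT3 to SMT1 by -0.20 (exact p = 0.171, adjusted 0.257) and SMT2 to SMT1 by 0.13 (exact p = 0.543, adjusted 0.543). None passed the threshold, which does not show that the balance was the same.

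The rest of the pathway was read from 39 further genes of mevalonate, squalene, ring, side-chain and conjugation steps. This list, too, was chosen with earlier results of these data known, and genes past the threshold were picked out by name. Their calls and adjusted p in the high humidity comparisons describe the fit over all genes and are no independent support. SMO1-3 was not analysed here, and of the other 38 genes 33 were tested, while the 5 untested genes (SQE4, LAS1, CYP710A1, CYP710A3 and CYP710A4) stayed at or under 0.14 TPM. At high against moderate humidity 4 of the 33 rose and 8 fell with limma at an adjusted p of 0.05. After scaling 7 rose and 4 fell. Of all tested genes 11.4% were called higher and 34.2% lower as deposited, and 18.6% and 15.0% after scaling, so the shares among the 33 lay near or below the background. The 10 members, of which 6 were called higher as deposited, are not among the 33. These shares thus depend on how the pathway was split and are not those of the whole pathway. The median log2 difference was -0.17 as deposited and 0.04 after scaling (all genes -0.22 and -0.02).

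Those that rose lay at separate steps. SQE1 (AT1G58440), a squalene epoxidase, was at 30.86, 38.08, 32.03 and 24.97 TPM at moderate and 58.14, 53.28, 56.84 and 54.9 TPM at high humidity, without overlap (log2 difference 0.82, SE 0.12, limma adjusted p = 2.4e-04). DWF1 (AT3G19820), which reduces the side chain on the way to campesterol and sitosterol, was at 113.87, 115.46, 101.46 and 96.17 TPM at moderate and 149.93, 160.39, 171.31 and 160.72 TPM at high humidity (0.59, SE 0.08, limma adjusted p = 9.5e-05). These groups did not overlap either. The farnesyl diphosphate synthase gene FPS1 (AT5G47770) rose by 0.44 (SE 0.12, limma adjusted p = 0.0084), from 41.0 ± 5.5 to 55.9 ± 3.51 TPM. ASAT1 (AT3G51970), a sterol acyltransferase of low level, rose by 0.68 (SE 0.23, limma adjusted p = 0.03), from 2.79 ± 0.464 to 5.18 ± 1.61 TPM, and its adjusted p was 0.095 without high humidity replicate 1, 0.054 without high humidity replicate 4, and 0.067 and 0.071 without moderate replicates 2 and 3. After scaling HMGS (0.41), SQS1 (0.25) and SMO2-1 (0.54) also passed, with limma adjusted p of 7.4e-04, 0.013 and 0.012.

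**Figure D4:**
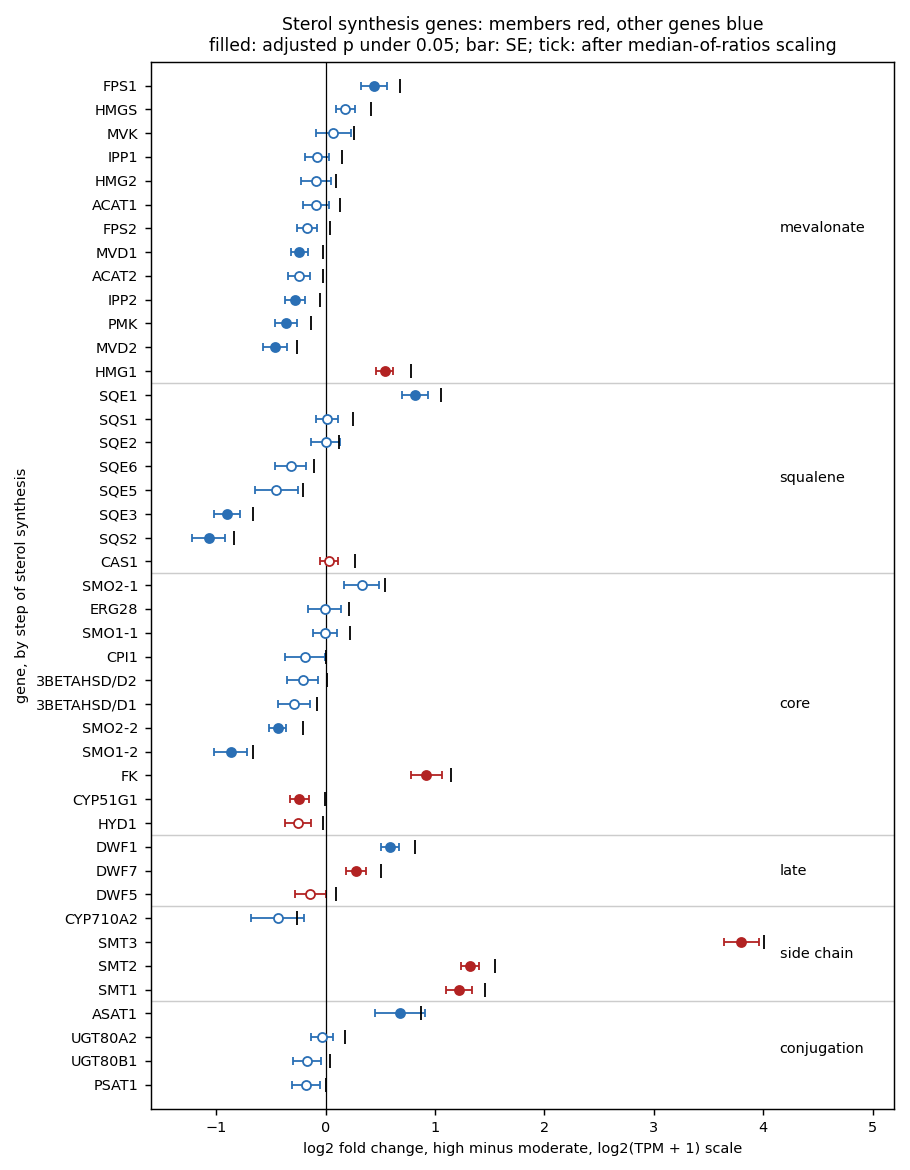
Log2 fold change at high against moderate humidity of the 10 members (red) and 33 other tested sterol genes (blue), in order of pathway step, with SE bars. Filled points passed an adjusted p of 0.05 over all genes, and black ticks give the value after median-of-ratios scaling, which moved genes to the right. For the members the fill is a description only. SMT3 at 3.80 is the extreme, and SQS2 at -1.07 is the lowest.

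The other tested squalene-step genes all had lower log2 differences than SQE1, from -1.07 (SQS2) to 0.03 (CAS1). SQE3 (AT4G37760), a further squalene epoxidase gene, fell from 207.07, 154.08, 232.6 and 195.16 TPM at moderate to 94.09, 117.12, 108.48 and 98.05 TPM at high humidity (-0.90, SE 0.12, limma adjusted p = 1.2e-04). All high humidity libraries were below all moderate ones. The related genes SQE5, SQE6 and SQE2 did not pass the threshold (-0.45, -0.32 and 0.00, limma adjusted p = 0.075, 0.077 and 0.98), and SQE5 was the most abundant of them, at 329 ± 60.5 TPM at moderate and 245 ± 73.1 TPM at high humidity. SQE1 and SQE3 are set side by side here because of their opposite calls, and the difference between them was not tested. SQE1 made up 35.0% ± 2.89 of the summed TPM of SQE1 and SQE3 at high, 14.1% ± 3.9 at moderate and 12.4% ± 2.5 at low humidity (SD, n = 4). SQS2 (AT4G34650), a homologue of the squalene synthase SQS1, fell from 33.0 ± 2.96 to 15.2 ± 2.08 TPM (-1.07, SE 0.15, limma adjusted p = 1.0e-04), while SQS1 was at 54.5 ± 2.25 and 55.0 ± 2.91 TPM (0.01, limma adjusted p = 0.92). SQE3 and SQS2 also fell after scaling, by 0.66 and 0.84.

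Of the ring-step genes, the sterol methyl oxidase genes SMO1-2 (AT4G22756) and SMO2-2 (AT2G29390) fell. SMO1-2 went from 12.6 ± 1.25 to 6.48 ± 1.42 TPM (-0.87, SE 0.15, limma adjusted p = 5.9e-04) and SMO2-2 from 25.6 ± 0.636 to 18.6 ± 1.54 TPM (-0.44, SE 0.08, limma adjusted p = 0.0011). Both calls held after scaling, at -0.66 and -0.21. Their paralogs SMO1-1 and SMO2-1 had log2 differences of -0.01 (limma adjusted p = 0.93) and 0.33 (0.10). In the mevalonate route MVD2 (AT3G54250, -0.46), PMK (AT1G31910, -0.36), IPP2 (AT3G02780, -0.28) and MVD1 (AT2G38700, -0.24) fell, with limma adjusted p of 0.0043, 0.012, 0.021 and 0.028. None of these 4 calls held after scaling, where their log2 differences were -0.26, -0.13, -0.05 and -0.02. The MVD1 call was also lost without moderate replicate 2 or any of the 4 high humidity libraries, and the IPP2 call without high humidity replicate 1 or 2 or moderate replicate 2 or 3, with adjusted p of 0.051 to 0.093.

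At low against moderate humidity none of the 33 passed an adjusted p of 0.05 with limma, with or without trend and robust moderation, and 9 had an unadjusted p under 0.05, where 29.2% of all genes did. Without low humidity replicate 1, 10 of them fell, where 30.3% of all genes were called lower. At high against low humidity 6 were higher and 5 lower, where 12.4% and 11.3% of all genes were.

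Markers of leaf cell types also differed at high against moderate humidity. Of 4 guard cell markers 2 fell, and their summed level was 33.6 to 43.5 TPM at high, 48.8 to 65.3 at moderate and 30.6 to 51.4 at low humidity. Of 4 epidermis markers 2 fell (sums of 414 to 502, 513 to 735 and 514 to 649 TPM), and 1 of 3 vascular markers rose (178 to 207, 140 to 159 and 154 to 180 TPM). Of 4 mesophyll markers 3 rose (43000 to 46800, 37200 to 39800 and 39000 to 50700 TPM). RBCS1A, which makes up most of that sum, was not called (0.05, limma adjusted p = 0.58). Of all tested genes 11.4% were called higher and 34.2% lower. After scaling the guard cell markers FAMA and SLAC1 and the same 3 mesophyll markers kept their calls, at -0.77, -0.46 and 0.59 to 0.76, and the epidermis markers CER6 and FDH did not, at -0.38 and -0.16. Of the 3 vascular markers 2 rose after scaling, SUC2 (0.63), which was also called as deposited, and APL (0.44). The rise of mesophyll markers was not particular to high humidity. At low against moderate humidity, as deposited, LHCB2.2 and LHCB4.1 were both at 0.59 (limma adjusted p = 0.013 and 0.0084). RBCS3B was at 0.38 there (limma adjusted p = 0.077). In bulk leaf, fewer cells of a type and less RNA per cell cannot be told apart, and the part of cell types in the sterol genes' differences was not tested.

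The genes with a pattern most like that of SMT3 were taken by Pearson correlation of log2(TPM + 1) over the 12 libraries, as a description. They were TTL3 (AT2G42580, r = 0.997), a tetratricopeptide thioredoxin-like gene, the VAMP family gene AT5G47180, the subtilase gene AT3G14240, the receptor-like kinase gene SRF6 (AT1G53730) and DREB26 (AT1G21910), an AP2/ERF factor gene, the last 4 each at 0.995. TTL3 had 92.9 ± 12.2 TPM at high humidity against 8.82 ± 0.633 TPM in the moderate libraries, and DREB26 had 109 ± 26.9 and 4.96 ± 2.36 TPM (SD, n = 4). The libraries fall into 2 clusters, high humidity and the rest, and this step sets the correlation. Among the members SMT1 (0.983) and SMT2 (0.98) were most like SMT3, followed by HMG1 (0.953), FK (0.94) and DWF7 (0.882). By r with SMT3 these ranked 112, 146, 393, 504 and 922 among the other tested genes. CAS1 was at 0.594, DWF5 at -0.14, HYD1 at -0.206 and CYP51G1 at -0.399.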

How the data were processed

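RNA from 12 leaf samples was sequenced. The submitters' processing notes name fastp, HISAT2, RSEM and TAIR10, and their versions and settings are unknown here. The authors deposited TPM per gene, with decimals and a near-constant library total, under a title that speaks of raw counts. Depth is thus unknown and no counting interval is possible. The 3 columns of the authors' means were left out.

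The members and the gene lists were chosen with earlier results of these data known. All 12 libraries entered 1 limma 3.58.1 fit (R 4.3.3) of log2(TPM + 1) for the 17368 genes reaching 1 TPM in 4 or more libraries, with an intensity trend, robust moderation and Benjamini-Hochberg adjustment. Folds on this scale understate those of low genes. Ratios were tested by exact permutation (SciPy 1.17.1). With 200 of 17368 genes altered in a simulation of high against moderate humidity, 41.8% of 1.5-fold, 88.1% of 2-fold and 95.5% of 4-fold changes were recovered, and 4.46% of calls were false. The simulation drew independent normal noise around the moderate means and held no shift of the median gene. In the data 1981 genes were called higher and 5938 lower, with a median of -0.22, so these rates need not hold there. Alternatives were a pseudocount of 0.1, no filter, median-of-ratios scaling, a replicate block, the compared conditions alone, no trend or robust moderation, and each library left out.

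Named genes are the members, the other sterol genes past the threshold at high against moderate humidity (up to 4 per direction and pathway group) and the 5 genes most correlated with SMT3. HMGS, SQS1, SMO1-1, SMO2-1, SQE2, SQE5, SQE6, the untested genes and the named cell type markers were added after their values were seen. No sequences or coordinates are printed and promoter motifs were not searched, since the reference genome at hand (TAIR10.1) is not the build in the notes.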

Additional observations from a re-analysis of the deposited data

Results flagged for a closer look

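Of 66 groups of 4 libraries (22 genes in 3 conditions), 4 held a library far from the other 3, by the gap to its neighbour over the group's range, and chance flags about 1 in 20 groups. SMT3 was at 61.76 TPM in high humidity replicate 2, against 90.53 to 92.18 TPM in the other high humidity libraries. CAS1 was at 48.5 TPM in low humidity replicate 1, against 41.73 to 42.48 TPM in the others. In high humidity replicate 1, MVD1 was at 15.19 TPM, against 15.96 to 16.05 TPM, and PMK at 41.77 TPM, against 43.3 to 43.42 TPM, both narrow groups.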

How the results depend on the processing

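Without depth, the counting error of low genes such as SMT3 at moderate humidity is unknown, and the scaling of libraries decides the sign of small differences. At high against moderate humidity, median-of-ratios scaling gave 3215 genes higher and 2595 lower (1981 and 5938 as deposited), 0 members lower (1 as deposited), and 7 other sterol genes higher and 4 lower (4 and 8). Leaving out 1 library gave 0 to 2 members lower. At low against moderate humidity, 77 genes were called higher and 40 lower. These counts were 38 and 6 with the compared conditions alone, 122 and 6 after scaling, 46 and 13 without the filter, and 24 lower without trend and robust moderation. Leaving out 1 library gave 18 to 392 higher and 1 to 5229 lower, with 0 to 5 members and 0 to 10 other sterol genes lower, each highest without low humidity replicate 1. Differences of members at low against moderate humidity that changed sign were small and none was called. After scaling SMT1 was at 0.06, SMT2 at 0.19, DWF7 at 0.02 and DWF5 at 0.08, and with 1 library left out SMT2 ranged from -0.04 to 0.05, HMG1 from -0.01 to 0.07 and DWF5 from -0.22 to 0.01. The causes were not tested.

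Replicate numbers did not pair the libraries: deviations of same-numbered libraries from their condition means correlated between -0.319 and 0.241, above 0.1 in 4 of 12 pairs, and in 3 of 12 comparisons a library correlated best with its own number. With the replicate block, 0 members were lower at high against moderate humidity, and 25 genes were higher and 1 lower at low against moderate humidity. Among the sterol genes named, the calls of CYP51G1, MVD1 and IPP2 at high against moderate humidity were then lost (limma adjusted p = 0.059 for MVD1 and 0.05 for IPP2), and SQE6 gained one (limma adjusted p = 0.035). At high against low humidity the calls of CAS1 and SMO2-2 were lost (limma adjusted p = 0.089 for SMO2-2). In this balanced design the block cannot change a difference of means, only its error.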
